A study of Mus musculus with 9 samples.

Results

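The genes described here encode chromatin regulators of the Polycomb pathway, an H3K27 demethylase, the acetyltransferases CBP and p300, and homeobox proteins that work as cofactors of PBX. They were chosen by name as Ezh1, Ezh2, Suz12, Eed, Kdm6b, Crebbp, Ep300, Meis1 and Pknox1, 9 of the 52780 genes in the count table. All 9 passed the filter on low counts, which left 19545 genes for testing. mRNA was sequenced from C2C12 cells, an immortal line of mouse myoblasts that form multinucleated myotubes when serum is lowered, at day 4 of differentiation. There were 3 samples of each condition. The si mH2A1.1 and si mH2A1.2 cells had received siRNA against the macroH2A1.1 or the macroH2A1.2 splice isoform of the histone variant macroH2A1, at 10 nM and repeatedly before and during differentiation. The controls are labelled wild type and are called si Ctrl here after the study's own naming, and the siRNA they received is not given in the labels. The study describes the replicates as biologically independent. All samples are of the same cell line, and each is a bulk culture that can hold fused and unfused cells, so fewer cells of a type and less RNA per cell cannot be told apart.

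Polycomb repressive complex 2 (PRC2) methylates lysine 27 of histone H3 through EZH1 or EZH2, which need SUZ12 and EED for activity, and the resulting mark is bound by PRC1 at silent genes. EZH2 is known for high levels in dividing cells and EZH1 for its presence in resting and differentiated cells, including muscle. KDM6B removes the methyl groups, CBP and p300 acetylate histones at active enhancers and are coactivators of MyoD, and MEIS and PREP proteins pair with PBX proteins on DNA, where PBX and MEIS help MyoD to reach its targets.

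The totals of the samples lay between 36924252 and 42223108 counts, and 3 counts corresponded to 0.0691 to 0.0826 CPM, the unit of counts scaled to library size used below. H2afy, which encodes both macroH2A1 isoforms and is counted as 1 gene, was 0.555-fold in si mH2A1.1 cells (edgeR adjusted p = 0.00331) and 0.764-fold in si mH2A1.2 cells (edgeR adjusted p = 0.108) relative to the controls. The gene total of the second knockdown thus missed the threshold by edgeR and passed it by DESeq2 (adjusted p = 0.0405), with its 3 samples all below the controls. The counts cannot separate the isoforms. The study checked by immunoblotting that the siRNAs were specific. The 10 skeletal muscle markers checked, such as Myog, Ckm and Acta1, summed to 11690 CPM or more in every sample, and the 4 macrophage and 4 endothelial markers each to 11.5 CPM or less. With si mH2A1.1 against si Ctrl 1 muscle marker was called, Myog, which was lower at 0.632-fold (edgeR adjusted p = 0.0204). Of the 10, 5 were higher there, and the median log2 fold change was 0.03. With si mH2A1.2 against si Ctrl 2 were called lower, Tnnt3 at 0.515-fold and Des at 0.651-fold (edgeR adjusted p = 0.028 and 0.0466). The macrophage marker Cd68 was higher with si mH2A1.1, at 9.14 against 2.98 CPM with si Ctrl (edgeR adjusted p = 0.00565). So was the endothelial marker Tek, at 1.3 against 0.359 CPM (edgeR adjusted p = 0.033). Of the other endothelial markers, Pecam1 went the other way at 0.683-fold and Cdh5 was 2.42-fold (edgeR adjusted p = 0.162 and 0.249). Kdr and the macrophage markers Ptprc, Adgre1 and Csf1r had too few counts to be tested, so Cd68 was the only macrophage marker tested. The 5 undifferentiated myoblast markers summed to 713.8 to 927.9 CPM in the si mH2A1.1 samples, above the 410 to 577.7 CPM of the controls. They summed to 439.5 to 731.9 CPM in the si mH2A1.2 samples. Most of each sum came from Cdh15, at 651.7 CPM with si mH2A1.1 against 329.2 CPM with si Ctrl (edgeR adjusted p = 0.0708). Of the 4 tested, none was called with si mH2A1.1 against si Ctrl. Myf5 was called lower with si mH2A1.2 against si Ctrl, at 0.559-fold (edgeR adjusted p = 0.0422). The sums of the cycling and fibroblast markers also differed between conditions, and the part of any marker list in the values of the 9 genes was not tested. The 12 cycling cell markers summed to a median of 510.8 CPM with si Ctrl (436.9 to 636.9), 846.6 CPM with si mH2A1.1 (575.5 to 1187) and 445.7 CPM with si mH2A1.2 (356.7 to 486.5). The 5 fibroblast markers, nearly all of whose counts came from Col3a1, summed to a median of 9147 CPM, 4246 CPM and 11380 CPM in the same order. They did not move as one. With si mH2A1.1 against si Ctrl, Col3a1, Lum and Dpt were lower (log2 fold change -1.06, -2.74 and -1.22). Pdgfra and Dcn were slightly higher there (0.11 and 0.06). With si mH2A1.2 against si Ctrl, Lum was lower (-0.52) and the other 4 were higher.

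Some of these genes are close relatives, and reads from a stretch shared by both could not be assigned to either. The longest runs of identical coding sequence were therefore sought in the GENCODE M21 transcripts (GRCm38). They are shown in capitals with 15 bases of coding sequence on either side, because they bear on whether the levels of relatives could be measured apart. The run shared by Ezh1 and Ezh2 was 17 bases long, that of Crebbp and Ep300 29 bases and that of Meis1 and Pknox1 11 bases.
Ezh1, exon 21 (chr11:101192961-101192977, minus strand): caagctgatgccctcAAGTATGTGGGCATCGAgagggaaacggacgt
Ezh2, exon 20 (chr6:47530563-47530579, minus strand): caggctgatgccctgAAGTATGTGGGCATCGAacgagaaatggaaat
Crebbp, exon 18 (chr16:4108064-4108092, minus strand): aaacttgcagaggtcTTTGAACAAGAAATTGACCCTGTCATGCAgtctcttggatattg
Ep300, exon 18 (chr15:81631797-81631825, plus strand): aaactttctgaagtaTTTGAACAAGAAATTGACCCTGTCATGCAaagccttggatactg
Meis1, exon 9 (chr11:18905733-18905743, minus strand): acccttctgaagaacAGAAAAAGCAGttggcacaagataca
Pknox1, exon 8 (chr17:31602808-31602818, plus strand): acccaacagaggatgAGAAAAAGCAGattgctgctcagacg
All 3 runs were shorter than the reads of 50 bases, and no window of 50 bases was shared within any of the 3 pairs over all their annotated transcripts. Windows shared with other genes, mostly overlapping ones, made up 0.0348% (Ep300) to 5.82% (Eed) of the windows of 8 of the genes. Meis1 stood apart, with 17% of its windows also present in 432 other genes, the most of them with Gm37818, which overlaps it on the same strand. Gm37818 had 12 to 41 counts, at most 7.07% of those of Meis1 in the same sample, so the level of Meis1 is the least certain of the set. Kdm6b overlaps Kdm6bos on the opposite strand, which had 34 to 83 counts, at most 1.66% of those of Kdm6b, and the sources used here do not state whether the counting used strand.

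In control myotubes all 9 genes were expressed, and their levels per length (RPKM, the CPM divided by the exon length in kilobases) spanned more than an order of magnitude. Kdm6b was highest at 20.7 ± 1.78 RPKM (SD, n = 3), followed by Suz12 at 15.2 ± 0.212 RPKM. Ezh1 (11.1 ± 1.98 RPKM) and Ep300 (11.1 ± 0.433 RPKM) overlapped each other, and Eed followed at 6.62 ± 0.257 RPKM. Ezh2 (4.71 ± 0.595 RPKM) overlapped Pknox1 (4.17 ± 0.278 RPKM), which in turn overlapped Crebbp (3.81 ± 0.0901 RPKM), while Meis1 was lowest at 1.52 ± 0.180 RPKM. All other neighbours in this order were separated by every control sample. Kdm6b lay above 87.3% of the tested genes and Meis1 above 40.2%. Between control samples Suz12 varied least, with a coefficient of variation of 1.40%, and Ezh1 most, with 17.8%.

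Comparing si mH2A1.1 with si Ctrl asks which regulators changed when macroH2A1.1 was depleted. Of the 9 genes, Pknox1 rose and no other passed the test at an adjusted p of at most 0.05, with 11.1% of all tested genes called in this comparison. Samples of the conditions did not overlap for Pknox1, Kdm6b and Meis1, 3 of the 9 genes, against 34.2% of all tested genes. Neither share stood above the background. The median log2 fold change of the 9 genes was -0.001, with 4 above 0.

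Comparing si mH2A1.2 with si Ctrl asks the same of the other isoform, and none of the 9 genes was called by edgeR, with 2.35% of all tested genes called. None had an unadjusted p under 0.05, and DESeq2 called none. Eed was the only one of the 9 whose samples did not overlap, against 22.5% of all genes. The log2 fold changes lay between -0.07 (Suz12) and 0.24 (Eed).

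In the direct comparison of si mH2A1.1 with si mH2A1.2, 3 of the 9 genes (33.3%) were called, Pknox1 higher and Ezh1 and Kdm6b lower with si mH2A1.1. Of all tested genes, 22.5% were called and 39.7% had samples that did not overlap, and the same 3 of the 9 genes did not overlap. The 3 comparisons share samples, so they are not independent of each other and their values are given side by side.

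**Figure D1:**
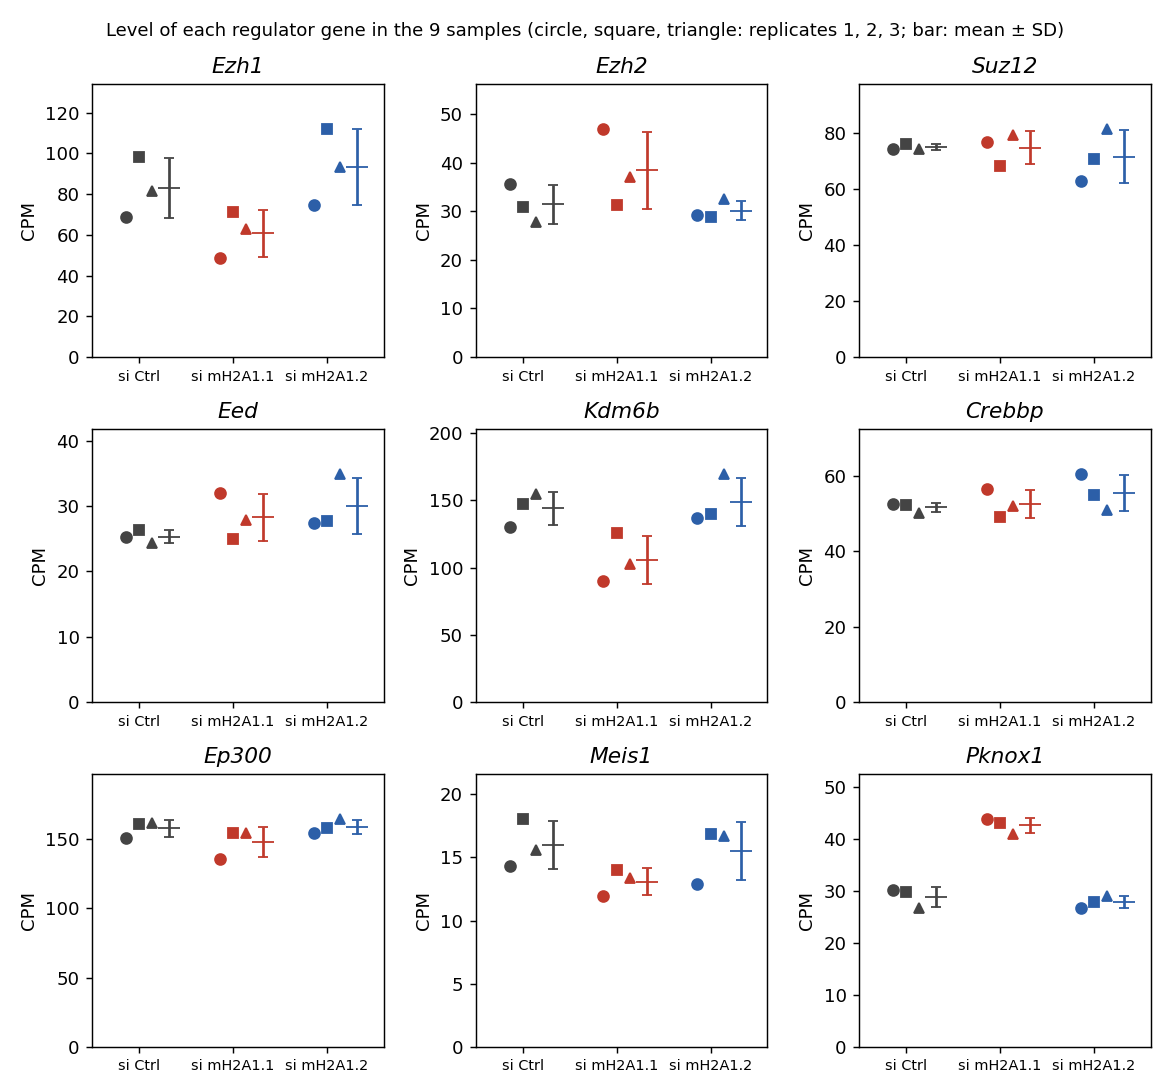
Level of each of the 9 genes in CPM (y axis, starting at 0) in the 3 samples of each condition, with circles, squares and triangles for replicates 1, 2 and 3 and a bar for the mean ± SD. Pknox1 is at 41.0 to 43.9 CPM with si mH2A1.1 and at 30.3 CPM or less in all other samples, while Suz12, Crebbp and Ep300 overlap between all conditions.

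Pknox1 (ENSMUSG00000006705, chr17:31564734-31607693, plus strand) encodes PREP1, a homeobox protein that binds PBX and keeps it in the nucleus. Its level was 30.3, 29.8 and 26.7 CPM in si Ctrl samples 1, 2 and 3. The si mH2A1.1 samples were at 43.9, 43.1 and 41.0 CPM, and the si mH2A1.2 samples at 26.8, 28.0 and 29.1 CPM. Every si mH2A1.1 sample was thus above all 6 others, which overlapped one another. The rise was 1.48-fold against si Ctrl (95% interval 1.29 to 1.69), with a log2 fold change of 0.56 (SE 0.09, edgeR adjusted p = 0.00613). Against si mH2A1.2 it was 1.53-fold (1.33 to 1.75), with a log2 fold change of 0.61 (SE 0.09, edgeR adjusted p = 0.00163). With si mH2A1.2 against si Ctrl the log2 fold change was -0.05 (SE 0.09, edgeR adjusted p = 0.847), and the interval of the ratio ran from 0.842 to 1.11. Both rises stayed past the threshold in each of 16 alternative fits, with an adjusted p of 2.85e-06 to 0.0309 against si Ctrl and of 8.66e-08 to 0.0116 against si mH2A1.2. Both were below the size that the study's stricter threshold of 0.8 on the log2 scale requires.

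Meis1 (ENSMUSG00000020160, chr11:18879817-19018985, minus strand) encodes the homeobox protein that competes with PREP1 for PBX. It was at 14.3, 18.0 and 15.6 CPM with si Ctrl. The si mH2A1.1 samples were at 11.9, 14.0 and 13.4 CPM, all below the controls, and the si mH2A1.2 samples at 12.9, 16.9 and 16.7 CPM, which overlapped both. The log2 fold change with si mH2A1.1 was -0.29 (SE 0.14, edgeR adjusted p = 0.208) and did not pass the test. The ratio of Meis1 to Pknox1 per length, looked at after their values were seen, was 0.179 to 0.214 in the si mH2A1.1 samples. It was 0.311 to 0.398 with si Ctrl and 0.316 to 0.398 with si mH2A1.2. The log2 difference was -0.85 in both comparisons (2-sided exact permutation p = 0.1, the smallest that 3 against 3 samples can give). Against si Ctrl that p was fixed beforehand, since every si mH2A1.1 sample was higher in Pknox1 and lower in Meis1, so it adds nothing to the values.

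Ezh1 (ENSMUSG00000006920, chr11:101191115-101226463, minus strand), a catalytic subunit of PRC2, was at 68.9, 98.3 and 81.5 CPM in si Ctrl samples 1, 2 and 3. It was at 48.5, 71.1 and 62.7 CPM with si mH2A1.1 and at 74.6, 111.9 and 93.1 CPM with si mH2A1.2. In each condition sample 1 was lowest and sample 2 highest, and the si mH2A1.1 samples overlapped those of si Ctrl but not those of si mH2A1.2. Ezh1 was 0.652-fold in si mH2A1.1 relative to si mH2A1.2 (95% interval 0.489 to 0.867), a log2 fold change of -0.62 (SE 0.19, edgeR adjusted p = 0.0381). Relative to si Ctrl the log2 fold change of si mH2A1.1 cells was -0.45 (SE 0.19, edgeR adjusted p = 0.138), and that of si mH2A1.2 cells was 0.17 (SE 0.19, edgeR adjusted p = 0.73). Over 16 alternatives the adjusted p of the si mH2A1.1 value was 0.00451 to 0.399, and 1 of them, the replicate block, passed the threshold. The call between the knockdowns was lost without any 1 of 5 samples, si Ctrl 3, si mH2A1.1 1 or 3, or si mH2A1.2 2 or 3. The adjusted p was then 0.0541 to 0.148, and it was 0.000598 to 0.148 over all alternatives.

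Ezh2 (ENSMUSG00000029687, chr6:47530139-47595341, minus strand), the other catalytic subunit, was at 35.7, 30.9 and 27.8 CPM with si Ctrl. It was at 46.9, 31.4 and 37.0 CPM with si mH2A1.1 and at 29.2, 28.8 and 32.5 CPM with si mH2A1.2. The conditions overlapped, and the highest value was that of si mH2A1.1 sample 1, the sample that also had the most cycling cell marker counts. The log2 fold change with si mH2A1.1 was 0.29 against si Ctrl (SE 0.15, edgeR adjusted p = 0.225) and 0.35 against si mH2A1.2 (SE 0.15, edgeR adjusted p = 0.122). Only without si mH2A1.1 sample 2, among all alternatives, did Ezh2 pass the test between the knockdowns (adjusted p = 0.0408, with 0.0408 to 0.432 over all alternatives). Of the cycling cell markers, 3 of 12 were called higher with si mH2A1.1 against si Ctrl and 10 of 12 against si mH2A1.2, with a median log2 fold change of 0.80 and 1.16.

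Within a sample, the ratio of Ezh1 to Ezh2 needs no scaling between libraries. Its log2 value from the counts was 0.95, 1.67 and 1.55 with si Ctrl. It was 0.05, 1.18 and 0.76 with si mH2A1.1 and 1.35, 1.96 and 1.52 with si mH2A1.2, so all si mH2A1.1 samples were below all si mH2A1.2 samples. The mean difference between the knockdowns was -0.95 on the log2 scale (2-sided exact permutation p = 0.1, the smallest that 3 against 3 samples can give). With si mH2A1.1 against si Ctrl the difference was -0.73 (exact permutation p = 0.2, and -0.42 without si mH2A1.1 sample 1), and with si mH2A1.2 against si Ctrl it was 0.22 (exact permutation p = 0.6). The last of these turned to -0.001 without si Ctrl sample 1. Sample 1 had the lowest ratio in every condition, so leaving out only 1 of them also unbalances the replicate numbers. The permutation test did not use the numbers. Within each number the si mH2A1.1 ratio was below that of si Ctrl, while the si mH2A1.2 ratio was above it in numbers 1 and 2 only. Per length, Ezh1 was above Ezh2 in every sample but si mH2A1.1 1, where the ratio was 0.928, and in the other samples it was 1.52 to 3.49.

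**Figure D2:**
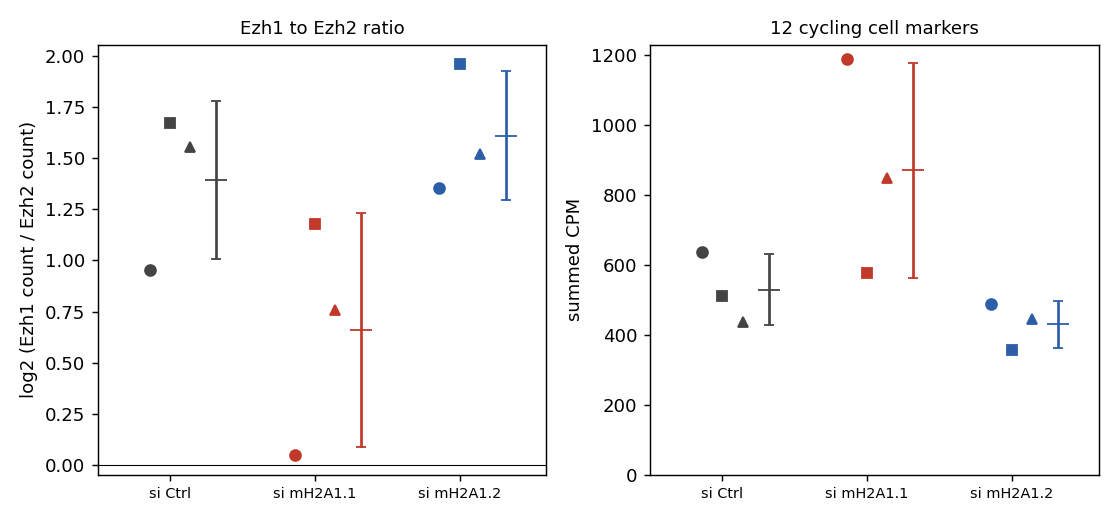
Left, log2 ratio of the Ezh1 count to the Ezh2 count in each sample; right, summed CPM of 12 cycling cell markers in the same samples, with circles, squares and triangles for replicates 1, 2 and 3 and bars for the mean ± SD (n = 3). The ratio is lowest (0.05) and the marker sum highest (1187 CPM) in si mH2A1.1 sample 1.

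The core subunits Suz12 (ENSMUSG00000017548, chr11:79993106-80034123, plus strand) and Eed (ENSMUSG00000030619, chr7:89954654-89980983, minus strand), which hold PRC2 together and bind its own product respectively, passed no test. Suz12 ranged from 62.7 to 81.4 CPM over the 9 samples, with log2 fold changes between -0.07 and 0.06. Its interval with si mH2A1.1 against si Ctrl ran from 0.848-fold to 1.18-fold. Eed was at 25.2, 26.3 and 24.4 CPM with si Ctrl and at 32.0, 24.97 and 27.8 CPM with si mH2A1.1. The si mH2A1.2 samples, at 27.4, 27.8 and 34.9 CPM, were all above the controls, with a log2 fold change of 0.24 (SE 0.13, edgeR adjusted p = 0.395). Sample 3 was the highest of all 9, and samples 1 and 2 lay within the range of si mH2A1.1.

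Windows of 250 bases before to 50 bases after the start from RefSeq (GRCm38.p6), given for 7 of the 9 genes, were searched on both strands for the E2F consensus spellings TTTCCCGC, TTTCGCGC, TTTGCCGC and TTTGGCGC. E2F factors drive genes of the cell cycle. Of 27025 genes with such a window, 2.6% held at least 1 of the spellings, and of the 7 genes Ezh2 and Suz12 did. The matches are shown with 11 bases on each side, in capitals, at positions 4 to 11 after the start of Ezh2 and -219 to -212 before that of Suz12.
Ezh2 (chr6:47595009-47595038, minus strand): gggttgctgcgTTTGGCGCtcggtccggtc
Suz12 (chr11:79992876-79992905, plus strand): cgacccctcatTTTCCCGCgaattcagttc
Among 11 cycling cell markers with such a window, 3 held a match. A match gives letters only and does not show that a factor was bound.

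Kdm6b (ENSMUSG00000018476, chr11:69398508-69413675, minus strand), the demethylase of H3K27, was at 130.4, 147.5 and 154.5 CPM with si Ctrl. It was at 90.1, 125.4 and 102.5 CPM with si mH2A1.1 and at 137.3, 139.7 and 169.6 CPM with si mH2A1.2. All si mH2A1.1 samples were below all others, with sample 2 close to the lowest control. Between the knockdowns it was 0.712-fold (95% interval 0.576 to 0.88), with a log2 fold change of -0.49 (SE 0.14, edgeR adjusted p = 0.029). Against si Ctrl it was 0.736-fold (0.595 to 0.909) with a log2 fold change of -0.44 (SE 0.14), and this missed the threshold by edgeR (adjusted p = 0.063) and passed it by DESeq2 (adjusted p = 0.0318). Over all alternatives that adjusted p was 0.0215 to 0.205, the lowest without si mH2A1.1 sample 2. The call between the knockdowns was lost without si mH2A1.1 1 or 3 or without si mH2A1.2 2 or 3 (adjusted p = 0.0598 to 0.0986, with 0.01 to 0.0986 over all alternatives). Kdm6a, the related demethylase on the X chromosome, was at 64.1 ± 8.99 CPM (SD, n = 3) in the controls, 54.7 ± 4.69 CPM after depletion of macroH2A1.1 and 64.8 ± 5.53 CPM after depletion of macroH2A1.2, and was called in no comparison, although the replicate block called it between the knockdowns (log2 fold change -0.25, adjusted p = 0.0448).

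Crebbp (ENSMUSG00000022521, chr16:4081328-4213997, minus strand), which encodes CBP, and Ep300 (ENSMUSG00000055024, chr15:81585351-81652077, plus strand), which encodes p300, passed no test in any comparison. Crebbp ranged from 49.1 to 60.4 CPM and Ep300 from 135.8 to 164.6 CPM over the 9 samples, and no pair of conditions was separated for either. Relative to si Ctrl, the log2 fold change of Crebbp was 0.02 in si mH2A1.1 cells and 0.10 in si mH2A1.2 cells, and that of Ep300 was -0.09 and 0.01. Between the knockdowns they were -0.08 for Crebbp and -0.10 for Ep300. The 95% intervals of these 6 ratios lay between 0.813-fold and 1.24-fold. Per length Ep300 was above Crebbp in all 9 samples, with Crebbp at 0.326 to 0.439 of Ep300.

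**Figure D3:**
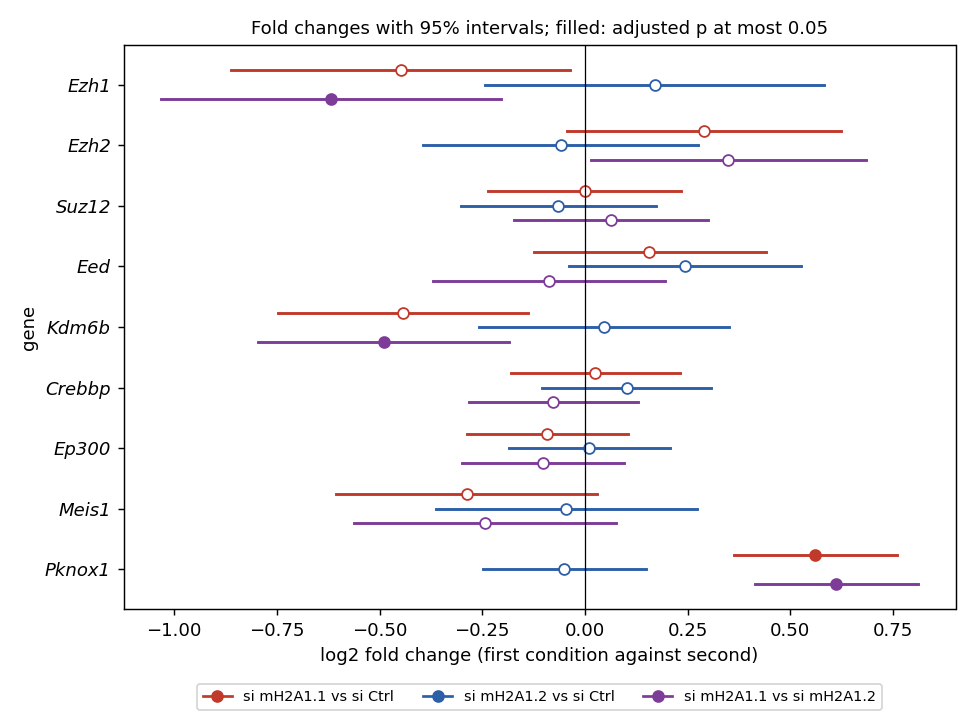
Log2 fold change of each gene (x axis, first condition against second) with its 95% interval in the 3 comparisons, filled where the edgeR adjusted p is at most 0.05. Filled points are Pknox1 at 0.56 and 0.61, Ezh1 at -0.62 and Kdm6b at -0.49.

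The wider families of these regulators were counted in 8 lists with 69 further genes, of which 67 were tested. Scml2 and Asxl3 had at most 14 and 9 counts in a sample and were not tested. With si mH2A1.1 against si Ctrl, 3 rose and 5 fell, 11.9% of those tested beside 11.1% of all tested genes, with a median log2 fold change of -0.08. Without si Ctrl 2 none of the 67 was called, and without si Ctrl 3, si mH2A1.1 1 or si mH2A1.1 3 only 1 or 2 were, while DESeq2 called 15. Of all tested genes, 2.99% to 4.02% were called without these samples. DESeq2 called 8.95% of the 37466 genes it tested, a set that includes low-count genes. The 67 had all passed the filter on low counts, so that share is not a like background for the 15. With si mH2A1.2 against si Ctrl edgeR called none, beside 2.35% of all tested genes. Of the 67, 12 had an unadjusted edgeR p under 0.05, beside 3109 of all 19545 tested genes. DESeq2 called 1 there, Phf19, which was lower (log2 fold change -1.02, DESeq2 adjusted p = 0.00383). Between the knockdowns, 4 were higher and 13 lower with si mH2A1.1, 25.4% of those tested beside 22.5% of all tested genes. That count was 7 without si mH2A1.2 2, and 8 to 10 without si mH2A1.1 3, si mH2A1.1 1 or si mH2A1.2 3. The share of all tested genes was then 11.2% to 14.7%.

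PRC1, which binds the mark made by PRC2 and ubiquitinates histone H2A, held most of the changed genes, with 5 of 23 tested lower and 1 higher with si mH2A1.1 against si Ctrl. These were 26.1% of the list, beside 11.1% of all genes, and no test of the list was made. Pcgf5, which marks a variant form of PRC1, fell from 51.99 ± 10.1 to 27.03 ± 5.84 CPM (SD, n = 3 each), a log2 fold change of -0.94 (edgeR adjusted p = 0.0468). Cbx7, a subunit that reads the methyl mark, fell from 23.1 ± 4.54 to 12.7 ± 1.89 CPM, a log2 fold change of -0.86 (edgeR adjusted p = 0.0293), and Pcgf2 fell by 0.62 on the log2 scale (edgeR adjusted p = 0.0213). The median of the 23 genes was -0.14. Between the knockdowns 8 were lower and 1 higher with si mH2A1.1, 39.1% of the list beside 22.5% of all tested genes. Among them were Cbx7 at -1.07 (edgeR adjusted p = 0.0066) and Pcgf5 at -1.02 (edgeR adjusted p = 0.0208). Another was Ring1, which encodes a catalytic subunit, at -0.58 (edgeR adjusted p = 0.015). With si mH2A1.2 against si Ctrl none of the 23 was called by edgeR, and 3 had an unadjusted edgeR p under 0.05, beside 3109 of all 19545 tested genes.

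The remaining PRC2 genes gave few calls by edgeR. Beyond the 4 genes above, neither of the other 2 core genes was called in any comparison. Of the 7 accessory genes, which guide PRC2 to chromatin, none was called by edgeR with either knockdown against si Ctrl. With si mH2A1.1 against si Ctrl, Phf1 and Lcor were lower and passed by DESeq2 (adjusted p = 0.0373 and 0.0384). Both also passed with the replicate block in edgeR (adjusted p = 0.037 and 0.0232). Between the knockdowns Phf19 was higher with si mH2A1.1, at 5.91 ± 1.62 against 3.33 ± 0.798 CPM (log2 fold change 0.83, edgeR adjusted p = 0.0373), and Phf1 was lower, at 26.9 ± 2.02 against 38.2 ± 5.87 CPM (log2 fold change -0.51, edgeR adjusted p = 0.0237). Phf19 stood at 6.75 ± 0.978 CPM with si Ctrl, near its si mH2A1.1 level, whereas Phf1 stood at 36.5 ± 4.66 CPM, near its si mH2A1.2 level.

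Among the 13 acetyltransferases, Kat2b, which encodes PCAF, a partner of p300 at MyoD targets, was at 73.6 ± 0.456 CPM with si mH2A1.1, 55.4 ± 3.53 CPM with si Ctrl and 51.8 ± 3.01 CPM with si mH2A1.2. It rose by a log2 fold change of 0.41 against si Ctrl (edgeR adjusted p = 0.0165), and the difference from si mH2A1.2 was 0.51 (edgeR adjusted p = 0.00305). It was the only gene of the list that the main edgeR fit called against si Ctrl. Kat8, which was lower, was also called by DESeq2 (adjusted p = 0.0322) and with the replicate block in edgeR (adjusted p = 0.036). Between the knockdowns Ncoa3, a nuclear receptor coactivator, was higher with si mH2A1.1 (log2 fold change 0.41, edgeR adjusted p = 0.0139) and Kat6b was lower (-0.36, edgeR adjusted p = 0.0266).

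Of the 11 histone deacetylase genes, Hdac1, a class I enzyme, rose from 24.3 ± 1.51 to 41.6 ± 7.26 CPM with si mH2A1.1 (log2 fold change 0.78, edgeR adjusted p = 0.0131) and was at 31.1 ± 5.23 CPM with si mH2A1.2. Hdac7 and Hdac4, class II enzymes that bind MEF2, were lower with si mH2A1.1 than with si mH2A1.2, by log2 fold changes of -0.79 (edgeR adjusted p = 0.0103) and -0.56 (edgeR adjusted p = 0.00427). Neither passed against si Ctrl in the main edgeR fit (adjusted p = 0.0823 and 0.0852), and Hdac7 passed by DESeq2 (adjusted p = 0.0494). Both passed with the replicate block in edgeR (adjusted p = 0.0272 and 0.031).

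Of the 11 PBX, MEIS, PREP and TGIF genes, the main edgeR fit called Pknox1 alone with si mH2A1.1 against si Ctrl. Pbx2, a partner of PREP and MEIS proteins, had a log2 fold change of -0.42 there and missed the threshold in that fit (edgeR adjusted p = 0.0525). It passed by DESeq2 and with the replicate block in edgeR (adjusted p = 0.0252 in both). It was named after its values were seen.

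**Figure D4:**
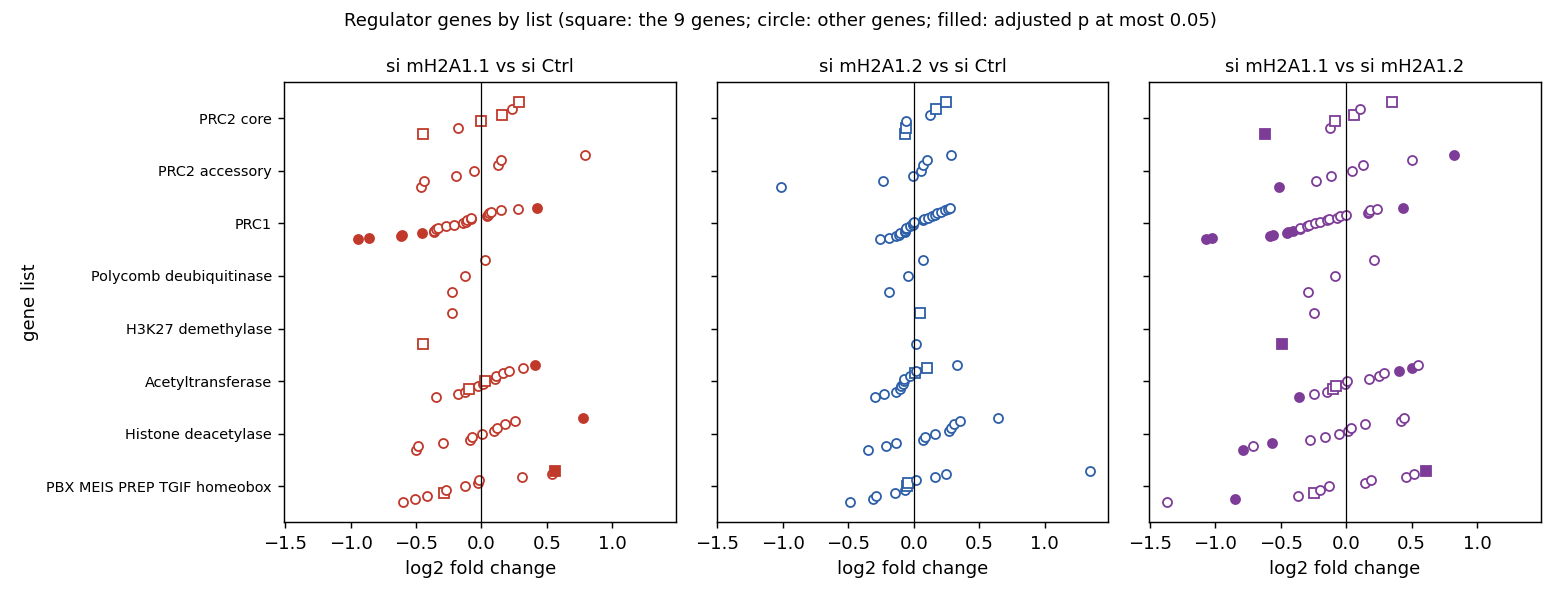
Log2 fold change (x axis) of the 9 genes (squares) and 67 related genes (circles) by list (y axis) in the 3 comparisons, filled where the edgeR adjusted p is at most 0.05. Filled points lie mostly below 0 in PRC1, with 5 lower and 1 higher for si mH2A1.1 against si Ctrl and 8 lower and 1 higher between the knockdowns. These are 26.1% and 39.1% of the list, beside 11.1% and 22.5% of all tested genes.

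For each called gene, the 2 genes with the most similar pattern were sought among 14381 genes with a mean of at least 1 CPM over the samples, by Pearson's r of log2 CPM over the 9 samples, as a description in which the samples share the same conditions. For Pknox1 these were Eef1a2 (r = 0.985), a translation elongation factor, and Mkrn1 (r = 0.98), a ubiquitin ligase. Eef1a2 was at 5.61 ± 0.812 CPM with si mH2A1.1, against 0.0803 CPM or less in every other sample, which is at or below the floor of 3 counts. It passed the filter through si mH2A1.1 alone, and its r rests on the 3 samples of that condition against 6 at the floor. Mkrn1 was at 39.6 ± 1.86 CPM with si mH2A1.1, 26.7 ± 0.313 CPM with si Ctrl and 25.9 ± 1.22 CPM with si mH2A1.2. For Ezh1 the nearest were Vamp4 (r = 0.987) and Wipi2 (r = 0.986), and for Kdm6b Shc1 (r = 0.983) and 5830487J09Rik (r = 0.981). Shc1 was at 95.4 ± 12.3 CPM with si mH2A1.1 and at 130.6 ± 8.87 CPM with si Ctrl and 135.7 ± 8.92 CPM with si mH2A1.2.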

How the data were processed

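mRNA of C2C12 cells was measured in 3 control, 3 si mH2A1.1 and 3 si mH2A1.2 samples. The authors sequenced polyA-selected RNA as single reads of 50 bases and made the expected counts per gene with Salmon on GRCm38 (mm10 in the submitters' processing notes); the deposited table holds these estimates as whole numbers, not normalized, for 52780 genes. A second deposited table, with the same counts divided by a size factor per sample, was not used. The annotation release is not given in the sources used here. GENCODE M21 named 52762 of the genes and gave positions and exon lengths.

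Genes were compared by the quasi-likelihood test of edgeR 4.0.16 (legacy form, R 4.3.3), with TMM scaling, filterByExpr on the conditions, the 9 samples in 1 model, and Benjamini-Hochberg adjustment over 19545 genes. Genes with an adjusted p of at most 0.05 were called, as in the study's methods. The alternatives were DESeq2 1.42.0, its size factors in edgeR, edgeR's newer form, no filter, at least 10 counts in every sample, only the conditions compared, a replicate block, a stricter rule (adjusted p under 0.01, log2 change of 0.8 or more in either direction) and each sample left out in turn. CPM used the totals of 36924252 to 42223108 counts after TMM scaling. The reads carry no molecular identifiers, so the floor of 3 counts covers counting error only.

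The replicate numbers come from the sample titles. Deviations from the condition means correlated between same-numbered si mH2A1.2 and si Ctrl samples with r of 0.331, 0.291 and 0.196 across genes. The main fit used no pairing in any comparison, so its intervals and adjusted p leave this likeness out. The replicate block, among the alternatives, takes it in. Named genes were the 9, H2afy, up to 3 called genes with the largest changes per list and comparison, and the 2 most similar genes of each called gene of the 9. Kdm6a, Kat8, Pbx2, Lcor and the single markers given with values were named after their values were seen. The values of 1 related gene are not reported here. The members and lists were chosen with earlier results of these data known. Summaries and plots were made in Python 3.11.15 (scipy 1.17.1, pandas 2.3.3, matplotlib 3.10.9).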

Additional observations from a re-analysis of the deposited data

How the results depend on the processing

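With 3 samples a condition, calls near the threshold depended on single samples. Of the 9 genes, the number called with si mH2A1.1 against si Ctrl was 1, against 2 by DESeq2 (Kdm6b and Pknox1), 3 with the replicate block (Ezh1, Kdm6b and Pknox1), 0 by the stricter rule and 1 to 2 with a sample left out. Between the knockdowns it was 3, against 0 by the stricter rule and 1 to 4 with a sample left out. With si mH2A1.2 against si Ctrl it was 0 in every alternative. Of the 67 related genes, 8 were called with si mH2A1.1 against si Ctrl, 15 by DESeq2, 19 with the replicate block, 0 by the stricter rule and 0 to 12 with a sample left out. With si mH2A1.2 against si Ctrl none was called by edgeR, 1 by DESeq2, 1 without the filter (Phf19 in both) and 0 to 1 with a sample left out. Between the knockdowns 17 were called, 20 by DESeq2, 25 with the replicate block, 2 by the stricter rule and 7 to 19 with a sample left out. The Ezh1 to Ezh2 difference with si mH2A1.2 against si Ctrl was -0.001 to 0.358 with a sample left out, and -0.001 without si Ctrl 1. Same-numbered samples correlated with r of 0.084 to 0.098 between si mH2A1.1 and the controls and 0.092 to 0.116 between the knockdowns. The main fit did not treat the numbers as pairs in any comparison. Each sample correlated best with its own number, and the library names run in sequence within a number, but no source states what same-numbered samples share. With si mH2A1.1 against si Ctrl and between the knockdowns, edgeR with the block gave Ezh1 an adjusted p of 0.00451 and 0.000598. For Kdm6b the block gave 0.0246 and 0.0117. It changed no call of the 9 genes for si mH2A1.2 against si Ctrl. Over all genes, with the comparisons in the order of Results, the block called 4065, 1005 and 5674 of 19545 tested genes. The main fit called 2171, 460 and 4397 of the same 19545. DESeq2 called 3354, 1096 and 4992, but of 37466 tested genes. As shares these were 20.8%, 5.14% and 29.0% with the block and 11.1%, 2.35% and 22.5% in the main fit. The shares by DESeq2 were 8.95%, 2.93% and 13.3%, over a set that includes the low-count genes. Without its filter on low counts, edgeR called 2482, 680 and 4238 of 37475 tested genes, or 6.62%, 1.81% and 11.3%. On nearly the same set of genes, DESeq2 thus called more than edgeR in all 3 comparisons.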
